A study of Mus musculus with 2 samples.

Results

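Fatty acid uptake, oxidation and ketogenesis were examined in mouse liver through 45 genes, listed by symbol for their part in this pathway and found on the array through the transcript identifier of each probe. All 45 were measured, among 16354 genes with a probe well above background on either array or both and 20652 genes named in all. The list holds 10 genes of fatty acid uptake and activation, 18 of mitochondrial oxidation, 10 of peroxisomal oxidation, 4 acyl-CoA thioesterases, 1 ketone body gene and 2 other genes, Vnn1 and Ucp2.

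The comparison asked how hepatic gene expression differs between fasting and feeding. Total RNA from the livers of 3 male mice was pooled for each group, labelled with the dye Cy3 and hybridised to 1 Agilent whole mouse genome array, so no test and no standard error between the groups can be had. The fast lasted 16 h by one label and 14 to 16 h overnight by another, and the feeding group is described both as fed without restriction and as given food after the fast. For mice in general, and without naming those on the arrays, the study's methods give male C57BL/6 J or transgenic animals on that background, aged about 8 to 12 weeks and kept on chow; the strain, age and meal of the pooled mice themselves, and the time since that meal, are not given in the sources used here. No genetic change and no drug is named for either group, and both were housed under a dark and light cycle in a specific-pathogen-free room.

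Fatty acids released from adipose tissue during a fast enter hepatocytes through membrane and fatty acid transport proteins, are bound by FABP1 and are activated to acyl-CoA. Long-chain acyl-CoA crosses into the mitochondria through the carnitine shuttle and is cut down by β-oxidation, whose acetyl-CoA feeds ketone body synthesis, while peroxisomes shorten very long and branched chains. Many genes of the pathway are known targets of PPARα, a nuclear receptor active in the fasted liver, which binds with RXR to pairs of a short half-site separated by a single base (a DR1 element), and insulin after a meal restrains the pathway.

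To show where such an element lies near these genes, the promoters given by RefSeq (assembly GRCm38.p6, from 250 bases before to 50 bases after the start of the transcript) were searched on both strands for 2 copies of AGGTCA separated by 1 base. Of the 45 genes, 38 had a promoter in the table. With at most 1 mismatch over both copies, 1 of the 38 held the element (2.63%), beside 0.607% of the 13015 measured genes with a promoter. With at most 2 mismatches, a choice made after that count was seen, 6 of 38 held it (15.8%), beside 4.08% of the measured genes. The 5 sites that lie before the start are printed below with up to 30 bases on either side, read 5′ to 3′ on the strand of the gene, with the matched 13 bases in capitals.

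Fabp1 (chr6:71199782-71199854, + strand, element starting 67 bases before the start, 1 mismatch): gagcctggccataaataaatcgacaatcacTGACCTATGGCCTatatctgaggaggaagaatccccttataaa
Cd36 (chr5:17835917-17835989, - strand, 63 bases before, 2 mismatches): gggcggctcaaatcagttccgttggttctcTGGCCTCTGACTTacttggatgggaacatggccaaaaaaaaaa
Echs1 (chr7:140116462-140116534, - strand, 83 bases before, 2 mismatches): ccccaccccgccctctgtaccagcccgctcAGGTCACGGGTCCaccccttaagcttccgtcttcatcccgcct
Etfa (chr9:55512278-55512350, - strand, 77 bases before, 2 mismatches): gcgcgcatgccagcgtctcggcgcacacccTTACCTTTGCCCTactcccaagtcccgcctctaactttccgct
Acot4 (chr12:84038336-84038378, + strand, 13 bases before, 2 mismatches): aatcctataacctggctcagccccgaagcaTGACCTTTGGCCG

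The copies in Fabp1, Cd36, Etfa and Acot4 read on the strand opposite to the gene, and those in Echs1 on the strand of the gene. The sixth site, in Slc25a20, starts after the start of the transcript and is not printed. A spacing of 4 bases, the DR4 element of thyroid hormone receptor, was met in 0 of 38 promoters with at most 1 mismatch, beside 0.215% of the measured genes. At so low a share, 0 of 38 does not set these genes apart, and 2 mismatches were not tried for this spacing. These matches describe letters in a short window; binding was not measured, and a site outside this window would not be seen. The 5 genes printed above changed by -0.90 (Cd36) to 0.41 (Acot4) on the log2 scale upon feeding, and no match lay in the promoters of the 6 genes past 2-fold (below) that the table holds; Vnn1, the other gene past 2-fold, is not in it.

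Signals are given as processed intensity after quantile normalization between the arrays, in arbitrary units that serve to compare a probe with itself and not with another probe. A change is the log2 signal upon feeding minus that upon fasting, on the brightest probe of a gene, and 2-fold (1 on the log2 scale) is the threshold of the study's methods. The arrays had 63.1% (fasting) and 72.3% (feeding) of their spots well above background, and 0 saturated spots. Probes spotted 10 times per array gave an SD of 0.0954 for the difference of single spots in the brightest of 3 groups of probes, 0.136 in the middle and 0.291 in the dimmest; this spread covers the spots of an array and not the mice. All 8 hepatocyte markers, among them Alb and Ttr, were well above background on both arrays, whereas 0 of 5 skeletal muscle markers were. Of the pancreatic acinar cell markers 3 of 6 were, the brightest being Ctrb1 with 352 upon fasting and 266 upon feeding. Of the red blood cell markers with a probe 2 of 3 were, among them Hba-a1 with 22098 and 21300. Since RNA came from whole liver, fewer cells of a type and less RNA per cell cannot be told apart.

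Most of the pathway had lower signal upon feeding. Of the 45 genes, 6 were at least 2-fold lower (13.3%), beside 4.63% of all genes measured, and 1 was at least 2-fold higher, beside 3.27% of all genes. The 6 lower genes were Decr2, Acot1, Vnn1, Slc27a1, Ucp2 and Cpt1a, and the higher one was Acot3. The smaller changes ran the same way, with 36 of 45 genes lower by any amount (80%) and 9 higher, beside 45.2% of all genes lower. Among all genes well above background on both arrays, 50.1% were lower. Where arrays were scaled by their median, 30 of the 45 were lower and 15 higher, beside 35.2% of all genes lower. The median change was -0.34, where all genes had a median of 0. At 1.5-fold, 14 genes were lower (31.1%), beside 10.6% of all genes, and Acot3 alone was higher, beside 10.5%. All 45 genes were well above background on both arrays, so none of these values is a bound. With the arrays scaled to a common median and not quantile normalized, 2 genes were at least 2-fold lower (4.44%), Decr2 and Acot1, beside 3.97% of all genes, and 1 was higher, beside 4.35%. The share of genes at least 2-fold lower was then close to that of all genes, so the larger 2-fold share given above holds for some ways of scaling and not for this one. The median was then -0.12, beside 0.09 over all genes.

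**Figure D1:**
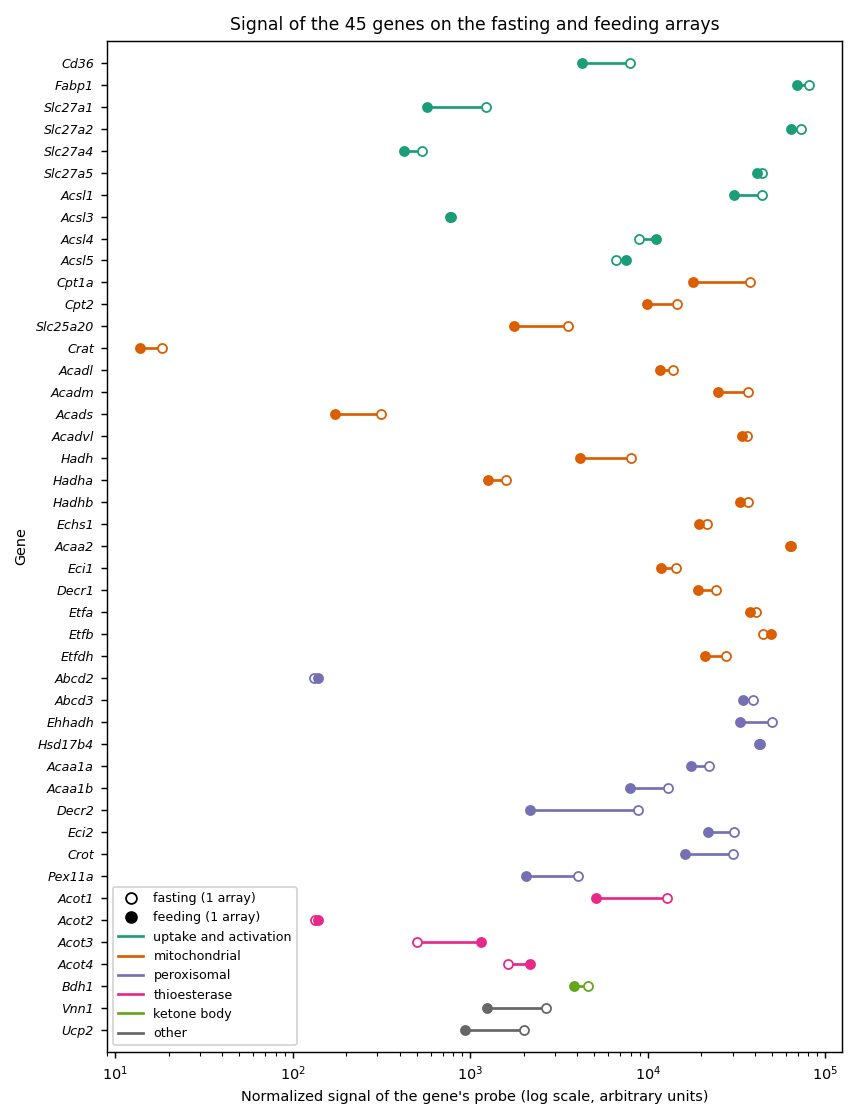
Normalized signal (log axis, arbitrary units) of each of the 45 genes on the fasting array (open circles) and on the feeding array (filled circles), 1 array of 3 pooled livers each, coloured by class. The filled circle lies to the left of the open one in 36 genes, and would in 30 had the arrays been scaled by their median; lengths of the lines compare a probe with itself, and positions of different genes are not comparable.

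The genes were bright, with 37 of 45 in the brightest of 3 equal groups of genes by mean signal. Within that group 5 of the 37 were at least 2-fold lower and the median change was -0.34, beside 3.71% of genes lower and a median of 0.01 over all 5451 genes of the group.

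**Figure D2:**
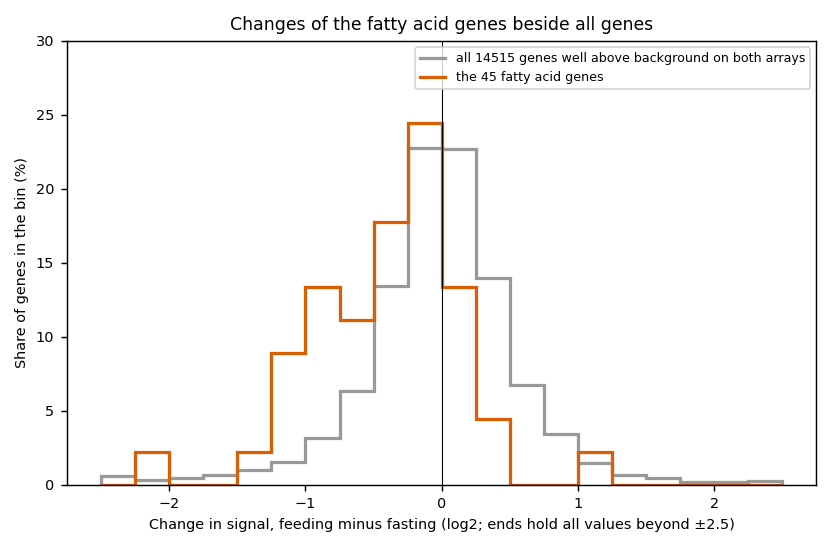
Share of genes (%) in bins of 0.25 of the change upon feeding (log2) for the 45 fatty acid genes and for all 14515 genes with a probe well above background on the fasting and the feeding array. The fatty acid genes lie to the left of all genes, with medians of -0.34 and 0.00.

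Among the genes of uptake and binding, all 6 had lower signal upon feeding. Of all genes 45.2% were lower, and of those well above background on each array 50.1%. Past 2-fold was 1 of the 6 (16.7%, beside 4.63% of all genes), and Slc27a5 turned to 0.09 where arrays were scaled by their median. Slc27a1 (FATP1), a fatty acid transport protein best known from muscle and adipose tissue, had a signal of 1220.4 upon fasting and 568 upon feeding, 2.15-fold lower (-1.10). Cd36, the membrane fatty acid translocase, had 7891 upon fasting and 4231 upon feeding (-0.90). These 2 genes stood apart from the transporters that mark hepatocytes. Fabp1, the main fatty acid binding protein of liver, had 80807 and 69605 (-0.22), in that order of fasting and feeding. Slc27a2, a liver transporter with very long-chain acyl-CoA synthetase activity, had 73176 and 63808 (-0.20). Slc27a5, a bile acyl-CoA synthetase of hepatocytes, had 44052 and 40981 (-0.10), and its second probe gave -0.21. The changes of these abundant liver genes were small, and that of Slc27a5 was close to the spread of bright repeat spots. Slc27a4, a widely expressed transport protein, had 538 and 424 (-0.34).

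Cd36 and Slc27a1 are also expressed in cells other than hepatocytes. Of the endothelial cell markers, 4 of 4 were lower upon feeding, Pecam1 by -1.04 and Stab2, Clec4g and Lyve1 by -0.48 to -0.31. The 5 Kupffer cell markers ran from -0.89 to 0.20, the 5 stellate cell markers from -0.97 to 0.24 and the 8 hepatocyte markers from -0.97 to 0.81. Of the adipocyte markers 2 of 5 were well above background on both arrays, Cfd with 0.89 and Retn with 0.42. The defining markers were dim, Adipoq with 8.16 upon fasting and 3.08 upon feeding and Lep with 2.48 and 2.34. The part of endothelial and Kupffer cells in the lower signal of Cd36 and Slc27a1 was not tested.

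The 4 long-chain acyl-CoA synthetases, which trap fatty acids in the cell as acyl-CoA, did not move together. Acsl1, the main hepatic form and a known PPARα target, had 44203 upon fasting and 30621 upon feeding (-0.53), and its second probe had 8052 and 3593 (-1.16), past 2-fold. Acsl3 (764 and 779.6; 0.03), Acsl5 (6582 and 7515; 0.19) and Acsl4, which prefers arachidonic acid (8872 and 11083; 0.32), were level or higher. The median over the 10 genes of uptake and activation was -0.21. Lower were 7 of 10 (70%), beside 45.2% of all genes and 50.1% of those well above background on each array.

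All 4 genes of the carnitine shuttle had lower signal upon feeding, with a median of -0.78. Of all genes 45.2% were lower, and of those well above background on each array 50.1%. Cpt1a, which makes acylcarnitine at the outer mitochondrial membrane and sets the rate of long-chain oxidation, had 37647 upon fasting and 17931 upon feeding, 2.10-fold lower (-1.07). This probe was spotted 10 times on each array, with an SD of 0.0627 for the difference of single spots, and the second Cpt1a probe had 1107 and 346 (-1.68). Slc25a20, the carrier that moves acylcarnitine across the inner membrane, had 3530 and 1768 (-0.997, just short of 2-fold). Cpt2, which turns acylcarnitine back into acyl-CoA in the matrix, had 14685 and 9932 (-0.56), with -0.79 on its second probe. On their brightest probes, Cpt1a and the carrier differed by less than the spread of repeat spots in their change, and the change of Cpt2 was smaller. The second Cpt1a probe (-1.68) differed from the carrier by more than that spread. Crat, which acts on short chains, had a dim signal of 18.4 and 13.8 (-0.42), where the spread of repeat spots was 0.291.

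The acyl-CoA dehydrogenases, which open each round of β-oxidation and differ in the chain length they prefer, were all lower, by unequal amounts, except that Acadvl turned to 0.10 where arrays were scaled by their median. Acads, for short chains, had 313 upon fasting and 172 upon feeding (-0.86). Acadm, for medium chains, had 36692 and 24812 (-0.56). Acadl, for long chains, had 13929 and 11777 (-0.24). Acadvl, for very long chains, had 36207 and 33769 (-0.10). With a normexp background correction Acads had -0.57 and Acadm -0.62, so the order of Acads and Acadm depended on the processing.

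Of the genes of the later steps, Hadh stood apart. Hadh, the 3-hydroxyacyl-CoA dehydrogenase for medium and short chains, had 8032 and 4126 (-0.96). Hadha and Hadhb, the subunits of the trifunctional protein that handles long chains at the inner membrane, had -0.34 (1596 and 1264) and -0.15 (36724 and 33067). Echs1, the short-chain enoyl-CoA hydratase, had -0.16 (21616 and 19294), and Acaa2, a thiolase that ends the round, had 0.03 (63178 and 64413) over 10 spots with an SD of 0.0823. The auxiliary enzymes of unsaturated fatty acids, Eci1 (14410.5 and 11831; -0.28) and Decr1 (24183 and 19118; -0.34), were lower, and the second Decr1 probe had 2808 and 1350.7 (-1.06). The genes of electron transfer to the respiratory chain went both ways: the subunits of the electron transfer flavoprotein, Etfa (40866 and 37667) and Etfb (44261 and 49490), had -0.12 and 0.16, and the ubiquinone oxidoreductase Etfdh had -0.40 (27495 and 20892). Over the 18 mitochondrial genes 16 were lower (88.9%, beside 45.2% of all genes and 50.1% of those well above background on each array), 1 of them past 2-fold (5.56%, near the 4.63% of all genes), with a median of -0.34; scaling by the array median turned Acadvl, Hadhb, Echs1 and Etfa to values between 0.04 and 0.10.

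The peroxisomal genes had the lowest median of the classes with more than 2 genes, -0.55 over 10 genes. Of these, 9 were lower (90%), beside 45.2% of all genes and 50.1% of those well above background on each array. Past 2-fold was 1 of the 10 (10%, beside 4.63% of all genes). Hsd17b4 turned to 0.04 and 0.17 under scaling by the 75th percentile and the median. Decr2, the peroxisomal 2,4-dienoyl-CoA reductase needed for polyunsaturated fatty acids, had 8808 upon fasting and 2169 upon feeding, 4.06-fold lower (-2.02), the greatest change of the 45 genes on their brightest probes. Pex11a, which takes part in peroxisome division and is inducible by PPARα ligands, had 4061 and 2057 (-0.98), with 10 spots per array and an SD of 0.0865. Crot, which makes medium-chain acylcarnitine for export to the mitochondria, had 30279 and 16163 (-0.91). Both lay just short of 2-fold. Ehhadh, the bifunctional hydratase and dehydrogenase, had 50316 and 32927 (-0.61), whereas Hsd17b4, the other bifunctional enzyme, which handles branched chains and bile acid precursors, had 43055 and 42240.2 (-0.03). The thiolases Acaa1b (13070 and 7891; -0.73) and Acaa1a (21966 and 17466; -0.33) are close paralogs, so their probes may share signal. Eci2, an enoyl-CoA isomerase, had -0.49 (30614 and 21821). The importers of fatty acyl-CoA were nearly level, with -0.20 for Abcd3 (39263 and 34211) and 0.07 for Abcd2 (132 and 138).

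**Figure D3:**
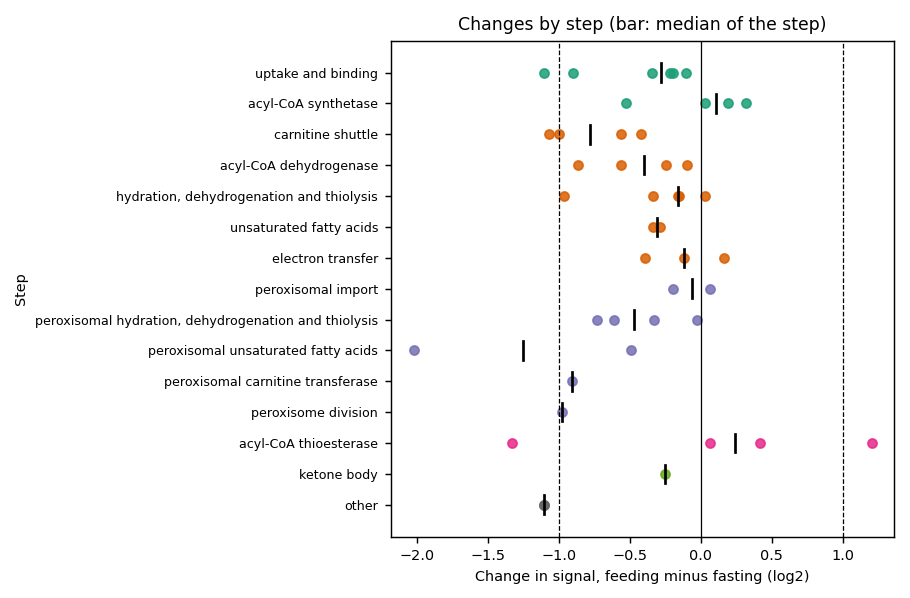
Change upon feeding (log2) of each of the 45 genes by step of the pathway, with a bar at the median of the step and dashed lines at 2-fold. The carnitine shuttle (median -0.78) and the peroxisomal enzymes of unsaturated fatty acids (Decr2 and Eci2) lie to the left, acyl-CoA synthetases sit around 0, and thioesterases spread to both sides.

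The ranges of the classes overlapped, from -1.10 to 0.32 in uptake and activation, -1.07 to 0.16 in the mitochondria and -2.02 to 0.07 in the peroxisomes, and with 1 array per group the order of their medians was not tested. Under scaling by the 75th percentile or the median and a normexp background correction, the peroxisomal median remained the lowest of the 3, between -0.50 and -0.37. The mean of the probes left it at -0.55, as each peroxisomal gene had 1 probe. Other filters and the omission of lower bounds could not change these medians, since every gene was well above background on both arrays.

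The thioesterases, which release free fatty acid from acyl-CoA, went in both directions. Acot1, the cytosolic long-chain form, had 12779 upon fasting and 5077 upon feeding, 2.52-fold lower (-1.33). Acot3, a peroxisomal form, had 500.4 and 1152 (1.20) on its brightest probe and 220 and 161 (-0.45) on its second. The probes of Acot3 thus disagreed in direction, and the mean of both was 0.38, not past 2-fold; a normexp background correction also left Acot3 short of it, at 0.91. Acot4 (peroxisomal, 1625 and 2166) and Acot2 (mitochondrial, 133 and 139) had 0.41 and 0.07. The genes of this family are neighbours of near-identical sequence, so their probes may share signal and these values are uncertain.

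Vnn1, a pantetheinase that frees pantothenate from coenzyme A breakdown and is induced in the fasted liver, had 2660.1 upon fasting and 1235 upon feeding, 2.15-fold lower (-1.11). Ucp2, a mitochondrial carrier that in liver is known from Kupffer cells as well as hepatocytes, had 2006 and 935, also 2.15-fold lower (-1.10). Of the Kupffer cell markers, Adgre1 had -0.89 on its brightest probe, Clec4f -0.41, Cd5l -0.12, Vsig4 -0.11 and Marco 0.20. The part of Kupffer cells in the lower Ucp2 signal was not tested.

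Bdh1, which reduces acetoacetate to β-hydroxybutyrate, was the only ketone body gene of the list. Its signal was 4585 upon fasting and 3858 upon feeding (-0.25), and its other probes gave -0.44 and -0.20. The 3 probes ran the same way with changes well short of 2-fold.

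In 8 of the 45 genes, several probes were well above background on each array, and in 7 of these the dimmest and brightest probes were both lower upon feeding. The dimmest probe had the larger decrease in 7 of 7, most in Decr1 (-1.06 against -0.34), Acsl1 (-1.16 against -0.53) and Cpt1a (-1.68 against -1.07). Among all genes with several such probes, both probes had the same direction in 2505 of 3468 (72.2%), and where both were lower the dimmest was lower by more in 792 of 1277 (62.0%). The cause of the smaller change on the brighter probe was not tested.

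**Figure D4:**
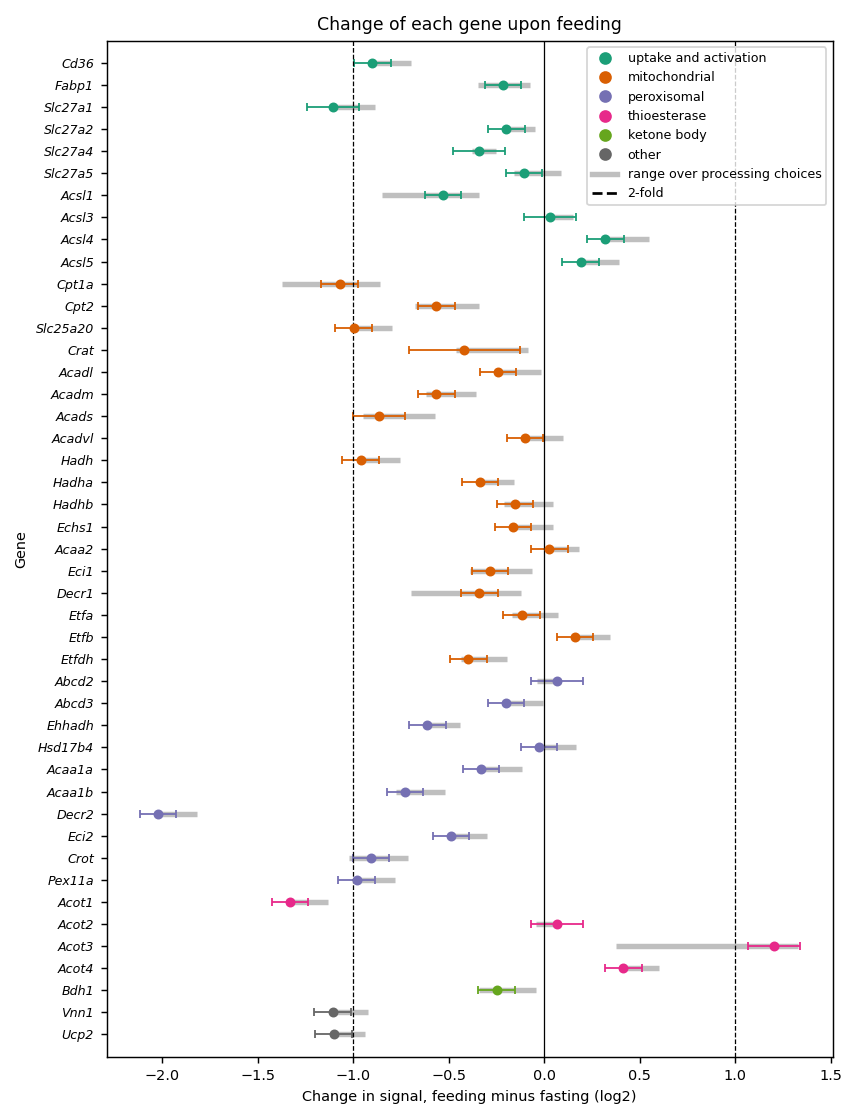
Change upon feeding (log2) of each gene on its brightest probe (points, coloured by class), with the SD of the difference of repeat spots of like brightness as error bars, which covers measurement on the array alone. Grey bars give the range over 7 other ways of processing the signals and dashed lines mark 2-fold; Decr2 and Acot1 stay past 2-fold along the whole grey bar.

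Other genes of the pathway, 66 reported here by role and 65 of them measured, had a median of -0.17, with 5 at least 2-fold lower (7.69%, beside 4.63% of all genes) and 2 higher, where 3.27% of all genes were higher. Slc22a5, the plasma membrane carnitine transporter OCTN2, had 1299.6 upon fasting and 444 upon feeding (-1.55), in the same direction as the carnitine shuttle. Ucp3, a mitochondrial carrier, had 1393 and 599 (-1.22). Among 16 other peroxisomal genes 0 were past 2-fold on their brightest probes, with a median of -0.16 and a range from -0.90 (Abcd4) to 0.59 (Pex11g), and a second probe of Acot8 had -1.44.

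Of 8 other ketone body genes reported here, 2 were at least 2-fold higher upon feeding; the group is not complete, so it does not describe ketone body synthesis as a whole. Aacs, the cytosolic synthetase that turns acetoacetate to lipid synthesis, had 815 and 3712 (2.19), higher upon feeding. Slc16a6, a monocarboxylate transporter described in ketone body export, had 1915 and 5641 (1.56), also higher, and its second probe had 1.47.

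Among 17 regulators, 3 were at least 2-fold lower (17.6%, beside 4.63% of all genes) and 0 higher, with a median of -0.47. Ppargc1a, the coactivator PGC-1α that drives oxidative and gluconeogenic genes in fasting, had 1400.2 upon fasting and 146 upon feeding (-3.26), and -3.48 on its second probe. Pdk4, the kinase that shuts off pyruvate dehydrogenase when fatty acids are burnt, had 4157 and 812 (-2.36). Ppargc1b, the related coactivator, had 124 and 40.3 (-1.62). Ppara itself had 9941 and 5803 (-0.78), and its 3 probes ran from -0.78 to -0.56.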

How the data were processed

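The authors deposited the Agilent Feature Extraction 11.0.1.1 output of 2 Cy3 arrays: an intensity per spot (processed signal, background-subtracted and not normalized between arrays) with raw and local background intensities. The array design names mm9. A further deposited table of values equals the local background of each spot and was not used. Depth has no meaning for arrays, and their number, 1 per group, limits the precision.

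Groups came from the sample titles. Control and outlier spots were left out, repeat spots were averaged as log2 processed signal, and quantile normalization (the study's method) was run on 39402 probes, of which 27218 (69.1%) were named through their transcript in RefSeq (GRCm38.p6). Each gene was read on its brightest probe among those well above background on either array; where it was not well above background on 1 array, the change was a lower bound. No test was possible; 2-fold was the threshold. All 45 genes are described, and other pathway genes past 2-fold by at most 4 per group. Part of the pathway is not reported here. The members and lists were chosen with earlier results of these data known. The procedure was tested on simulated data with known changes. Both simulated arrays were made from the fasting signals, so scaling between unlike arrays was not tested. The other settings tried were a 75th percentile or median scaling, normexp with offset 50 (limma 3.58.1, R 4.3.3), the mean of the probes, 2 other filters, no lower bound, and thresholds of 1.5-fold and 3-fold. Python 3.11.15, numpy 2.4.6 and pandas 2.3.3 were used. Promoter sequences and their coordinates came from RefSeq (GRCm38.p6); probe sequences, probe coordinates and proteins were not used here.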

Additional observations from a re-analysis of the deposited data

How the results depend on the processing

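No paired analysis was possible because each group has 1 array, and leaving out a replicate was likewise not possible. Scaling by the array median left 2 genes at least 2-fold lower in place of 6 and gave medians of -0.12 over all 45 genes, -0.0625 for uptake and activation, -0.14 for mitochondrial and -0.37 for peroxisomal genes; with it, 650 of all genes measured were at least 2-fold lower and 711 higher, where the reported counts were 757 and 535, and without lower bounds 761 and 881. The normexp correction and the mean of the probes each gave 0 genes at least 2-fold higher in place of 1. At 1.5-fold 14 genes were lower, and at 3-fold 1 was lower and 0 were higher. With at most 2 mismatches in the DR1 element, chosen after seeing the data, 6 promoters held it in place of 1. The cause of these differences was not tested, beyond the looser or stricter criterion itself. Of the 7 genes past 2-fold, Decr2 and Acot1 were past it in all 7 alternatives that keep the threshold, Ucp2 in 6, and Slc27a1, Cpt1a, Acot3 and Vnn1 in 5, with no change of direction. The filters and the omission of lower bounds could not change any of the 45 genes, all well above background on both arrays. The mean of the probes could not change genes with 1 probe, among them Decr2, Acot1, Ucp2, Slc27a1 and Vnn1. Scaling by the 75th percentile kept Slc27a1 and Vnn1 past 2-fold (-1.09 and -1.05), whereas median scaling (-0.97 and -0.92) and normexp (-0.89 and -0.92) did not. Direction depended on the processing in 8 of 45 genes with small changes: Slc27a5, Acadvl, Hadhb, Echs1, Etfa and Hsd17b4 were higher upon feeding when scaled by the median (0.04 to 0.17), Hsd17b4 also with the 75th percentile (0.04), and Abcd2 and Acot2 were lower with the 75th percentile (-0.03 and -0.04).

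Differences near the spread of repeat spots (0.0954 to 0.291) cannot be told from measurement error, and the variation between mice was not measured.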
